A study of Arabidopsis thaliana with 24 samples.

Results

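Salicylic acid is the plant hormone of defence against biotrophic pathogens. In Arabidopsis most of it is made from chorismate by isochorismate synthase in the plastid, and the intermediate is exported to the cytosol, joined to glutamate and released as salicylic acid. The lipase-like proteins EDS1 and PAD4 and the transcription factors CBP60G and SARD1 promote this route, and the transcripts of the secreted PATHOGENESIS-RELATED proteins PR1, PR2 and PR5 are the usual readout of the response, which also rises as leaves age. The 10 genes described here are ICS1, EDS5 and PBS3 (synthesis), CBP60G and SARD1 (transcription factors), EDS1 and PAD4 (signalling), and PR1, PR2 and PR5 (response). They were chosen by gene identifier from the 33044 genes listed, and PR1 was included because it had been seen to be high in mutant shoots. For that reason the shoot values are given as descriptions without a test, and tests are given only for the leaf libraries. Since the genes were chosen with earlier results of these data known, the leaf tests may not be free of that choice either. All 10 genes passed the filter on low values, and each had a mean of at least 1 FPKM in all 8 groups.

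RNA-seq libraries were made from Arabidopsis thaliana Col-0 (w) and from the double mutant dpe2/phs1 (d), which lacks the cytosolic glucanotransferase DPE2 and the plastidial phosphorylase PHS1 of starch breakdown. Each of the 8 groups held 3 replicates, 24 libraries in all. Groups wP and dP were whole shoots of the Prior Period, 3 weeks after germination. Groups wY, dY, wM and dM were young (Y) and mature (M) leaves with their petioles in the Reduced Granule Number Period (RGN), at 5 weeks. Groups wR and dR were whole shoots of the Recovery Period, at 7 weeks by the sample labels. The mutant was a single line obtained by crossing, and the number of plants behind each library was not given in the sources used here. Levels are in FPKM, read pairs scaled to the length of the gene and the depth of the library. In whole leaves and shoots, fewer cells that express a gene and less RNA per cell cannot be told apart.

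The library totals behind FPKM, recovered from the values as described below, were 17504383 to 27859805 read pairs, called reads here. At these totals 3 reads on a gene of 1 kb equal 0.108 to 0.171 FPKM. The number of reads sequenced is not known from these totals. The lowest count of any of the 10 genes in any library was 50 reads. The summed FPKM of DPE2 and PHS1 was 196 to 293 in the Col-0 libraries of P, Y and M and 47.5 to 68.4 in the mutant libraries of these groups, but 34.2 to 75.3 in the libraries labelled wR and 54.9 to 62.9 in dR. The targeted genes thus did not separate the genotypes in R, and every direction drawn from the libraries labelled wR rests on the label. These libraries were also poor in long transcripts: the median deviation of the longest 10% of genes less that of the shortest 10% was -2.01 to -0.90 on the log2 scale, against -0.63 to 0.97 in the other libraries. The mature leaf groups also differed in this measure, at -0.63 to -0.22 in dM and 0.37 to 0.69 in wM. Calls with the length trend removed are given at the end. Flower markers summed to at most 1.61 FPKM in every library, so whole shoots of R held little flower RNA by this measure. All 9 markers of leaf senescence were higher in dM than in wM, with a summed level of 1183 to 1353 FPKM in dM and 127 to 142 FPKM in wM, and 7 of 9 were higher in dY than in wY (206 to 244 against 67.1 to 73.0 FPKM). SAG12, a cysteine protease of late senescence, had no read in wY and wM and 43.0 ± 2.67 FPKM (SD, n = 3) in dM. All 3 guard cell markers were lower in dM (summed level 6.77 to 8.79 against 20.7 to 26.0 FPKM in wM), and 2 of 3 were lower in dY (18.6 to 19.1 against 29.8 to 36.8 FPKM in wY). The 5 mesophyll markers summed to 19989 to 23012 FPKM in dM and 31148 to 32229 FPKM in wM, with 3 lower and CAB3 and LHCB2.1 higher, and to 26679 to 28771 FPKM in dY and 27840 to 33616 FPKM in wY, with 2 lower and the same 2 higher. Of the 3 root markers, IRT1 and CASP1 stayed under 1 FPKM in every group, whereas PYK10 had 78.8 ± 6.69 FPKM in dM and 0.21 ± 0.01 in wM, and 118.5 ± 12.9 in dY and 5.50 ± 1.25 in wY. In shoots the 3 summed to 98.4 to 111 FPKM in wP and 116 to 121 in dP. They summed to 8.64 to 21.5 FPKM in the libraries labelled wR and 47.2 to 57.6 in dR. The part of these markers in the results below was not tested.

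The 3 response genes, which are often read together, parted in dpe2/phs1. PR1 was 14.3-fold higher in mature and 2.13-fold higher in young mutant leaves than in Col-0, while PR5 was lower in both, and PR2 was lower in young leaves and did not pass the test in mature leaves. Upstream of them, EDS1 and PAD4 were lower in both leaf ages, and ICS1, EDS5, PBS3 and SARD1 were lower in young mutant leaves but did not pass the test in mature leaves. CBP60G passed the test for a genotype difference in neither leaf age. In young leaves 1 gene was thus higher (PR1) and 8 were lower in the mutant, against a background of 53.6% of the 19575 genes tested (34.6% higher and 19.1% lower). In mature leaves 1 was higher, 3 were lower and 6 did not pass, against a background of 69.1% (36.6% higher and 32.5% lower). The median log2 fold change of the 10 genes was -0.81 in young and -0.05 in mature leaves, and that of all genes tested was 0.15 and 0.05. With so many genes called, a call in itself does not set these genes apart from the rest. Of the genes called in young leaves 64.5% were higher, and after median-of-ratios rescaling, which lowered the median of all genes by 0.14, 49.8% were higher, with the same numbers of these 10 genes higher and lower.

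**Figure D1:**
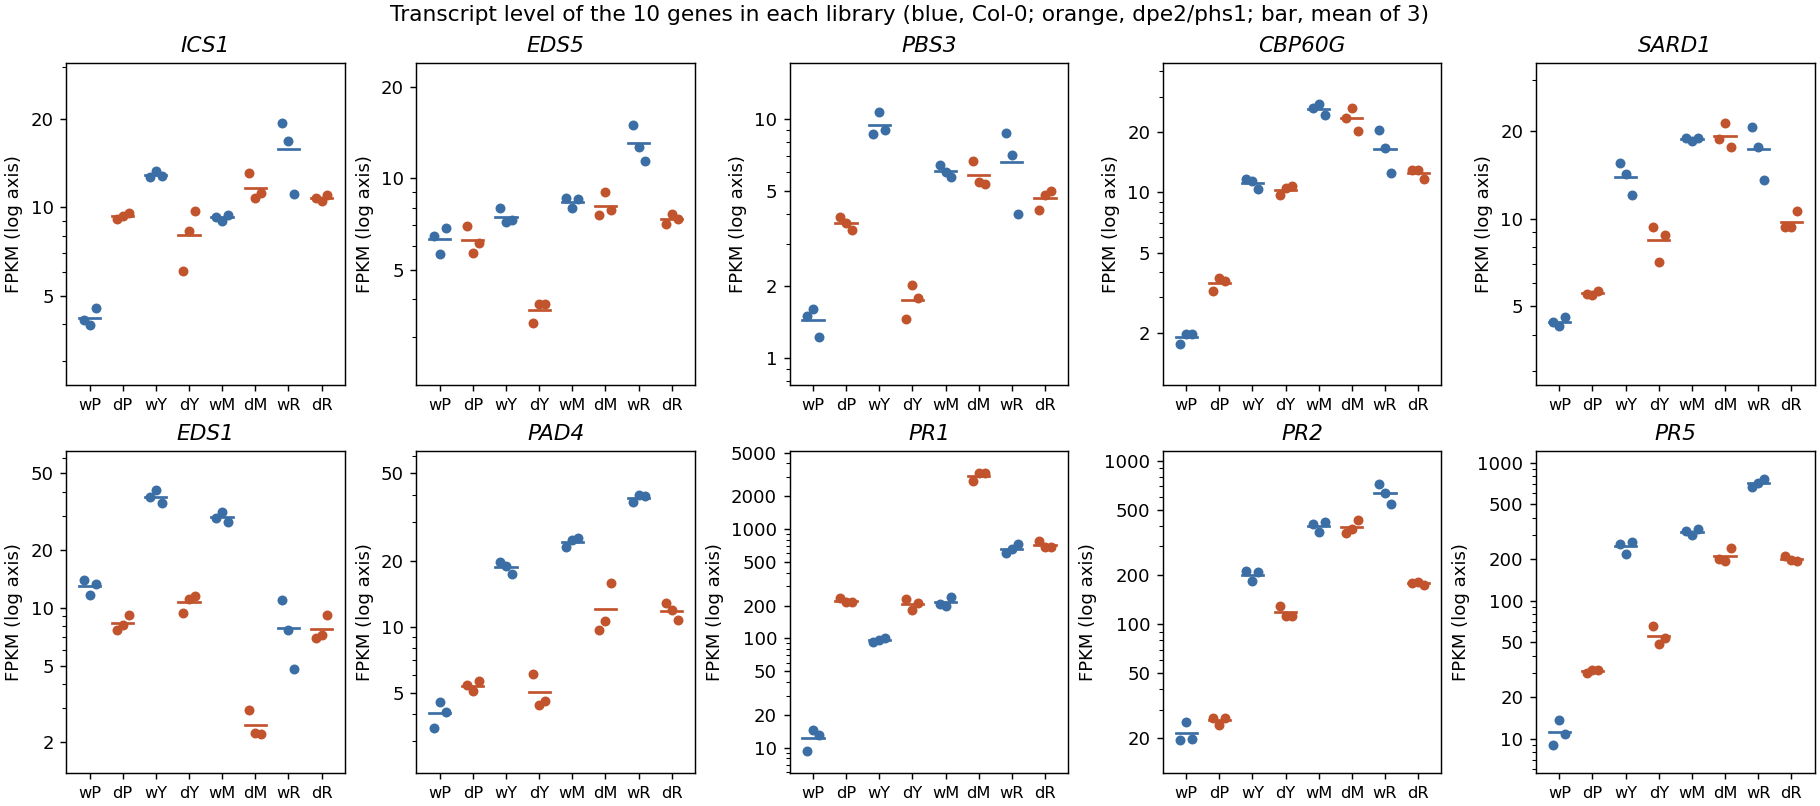
FPKM of each of the 10 genes in the 24 libraries, on a log axis of its own per gene, by group (blue, Col-0; orange, dpe2/phs1; points, libraries; bars, mean of 3). The 3 dM libraries of PR1 sit between 2769 and 3274 FPKM, above all other libraries, whereas the 3 dM libraries of EDS1 sit between 2.21 and 2.94 FPKM, below all others.

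**Figure D2:**
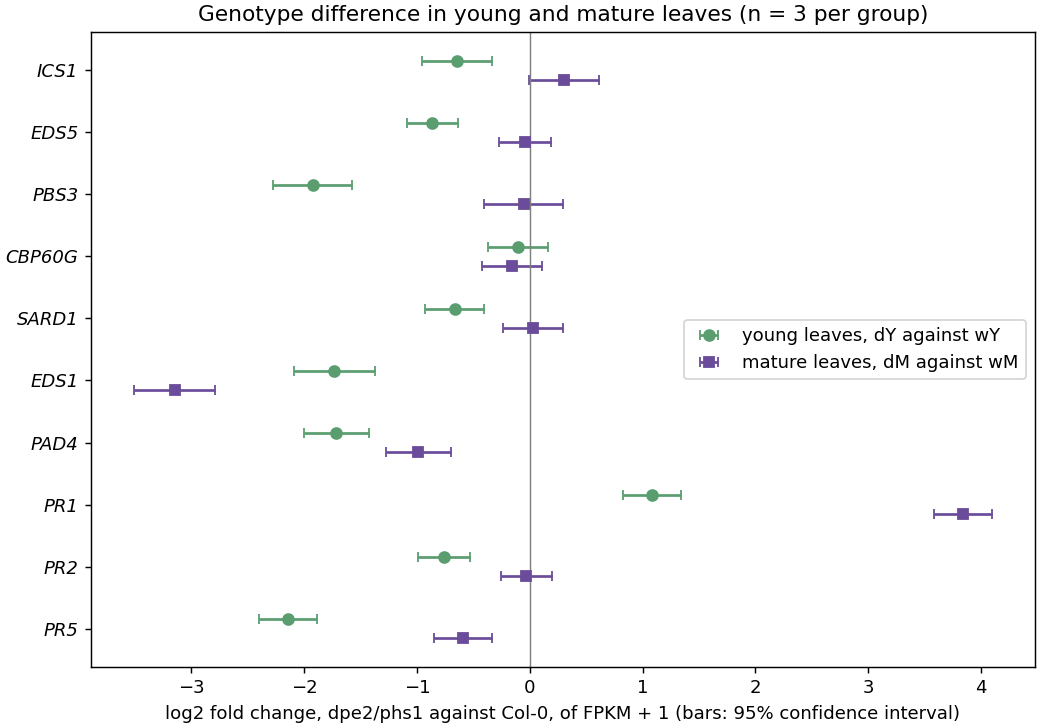
Log2 fold change of FPKM + 1, dpe2/phs1 against Col-0, in young leaves (green circles) and mature leaves (purple squares), with 95% confidence intervals from limma over 24 libraries. PR1 lies at 1.08 and 3.84, to the right of 0 in both, and EDS1, PAD4 and PR5 lie to the left of 0 in both.

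PR1 (AT2G14610, chromosome 2, 6241640 to 6242541, reverse strand, TAIR10) encodes a small secreted protein of the CAP family. In young leaves it had 93.8, 97.0 and 100.8 FPKM in wY and 229.6, 182.3 and 210.2 FPKM in dY. In mature leaves it had 209.0, 199.8 and 239.2 FPKM in wM and 2769, 3254 and 3274 FPKM in dM. The mutant libraries lay above the Col-0 libraries in both leaf ages without overlap. The log2 fold change was 1.08 (SE 0.12, adjusted p = 1.7e-07, limma) in young and 3.84 (SE 0.12, adjusted p = 4.2e-17) in mature leaves. The difference between leaf ages was itself 2.76 on the log2 scale (SE 0.18, adjusted p = 6.1e-11), in a test in which 48.8% of all genes were called. PR1 also rose with leaf age within each genotype, 2.22-fold from wY to wM and 14.9-fold from dY to dM. The summed senescence markers given above were likewise lowest in wY and highest in dM among the leaf groups. They were higher in dY (206 to 244 FPKM) than in wM (127 to 142 FPKM), whereas PR1 overlapped between these groups. A link between PR1 and the markers was not tested.

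PR2 (AT3G57260, chromosome 3, 21188397 to 21189967, reverse strand) encodes a secreted beta-1,3-glucanase that acts on fungal cell walls. It had 211.1, 182.7 and 208.5 FPKM in wY and 129.97, 112.9 and 112.4 FPKM in dY, so that the mutant libraries all lay lower. Its log2 fold change in young leaves was -0.76 (SE 0.11, adjusted p = 5.2e-06, limma). In mature leaves it had 409.9, 367.8 and 423.0 FPKM in wM and 361.7, 384.0 and 431.8 FPKM in dM, and the groups overlapped. The log2 fold change there was -0.03 (95% confidence interval -0.26 to 0.20, adjusted p = 0.82). The interval leaves out a change of the size seen for PR1.

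PR5 (AT1G75040, chromosome 1, 28177670 to 28179022, forward strand) encodes a thaumatin-like protein. It had 256.2, 219.6 and 267.2 FPKM in wY and 65.1, 48.1 and 53.9 FPKM in dY, a log2 fold change of -2.14 (SE 0.12, adjusted p = 2.1e-12, limma). Mature leaves held 320.5, 298.6 and 332.6 FPKM in wM and 199.96, 193.1 and 241.4 FPKM in dM, a log2 fold change of -0.59 (SE 0.12, adjusted p = 0.00024). The mutant libraries lay below the Col-0 libraries in both leaf ages without overlap.

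Within the leaves, the split of the 3 genes was also seen in the ratio of PR1 to PR5 within each library. This ratio needs no scaling for depth and was chosen after the values were seen. Such ratios do not remove a trend with gene length, and the listed lengths were 902 bases for PR1, 1095 for PR5 and 1477 for PR2. The ratio of PR1 to PR5 was 0.37 to 0.72 in the Col-0 leaf libraries and 3.53 to 16.9 in the mutant leaf libraries, without overlap. The group means were 0.39 ± 0.04 in wY and 3.74 ± 0.19 in dY, and 0.68 ± 0.04 in wM and 14.8 ± 1.82 in dM. The ratio of PR1 to PR2 was 0.44 to 0.57 in Col-0 leaves and 1.61 to 8.48 in mutant leaves, again without overlap. The ratio of PR5 to PR2 moved the other way, from 0.78 to 1.28 in Col-0 leaves to 0.43 to 0.56 in mutant leaves. In the shoots, where PR1 was high in the mutant by the choice of the genes, the ratio of PR1 to PR5 is only a description: it was 1.04 to 1.2 in wP and 6.79 to 7.82 in dP. It was 0.90 to 0.96 in the libraries labelled wR and 3.48 to 3.64 in dR, where PR1 itself overlapped between the groups and PR2 and PR5 were lower in dR.

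**Figure D3:**
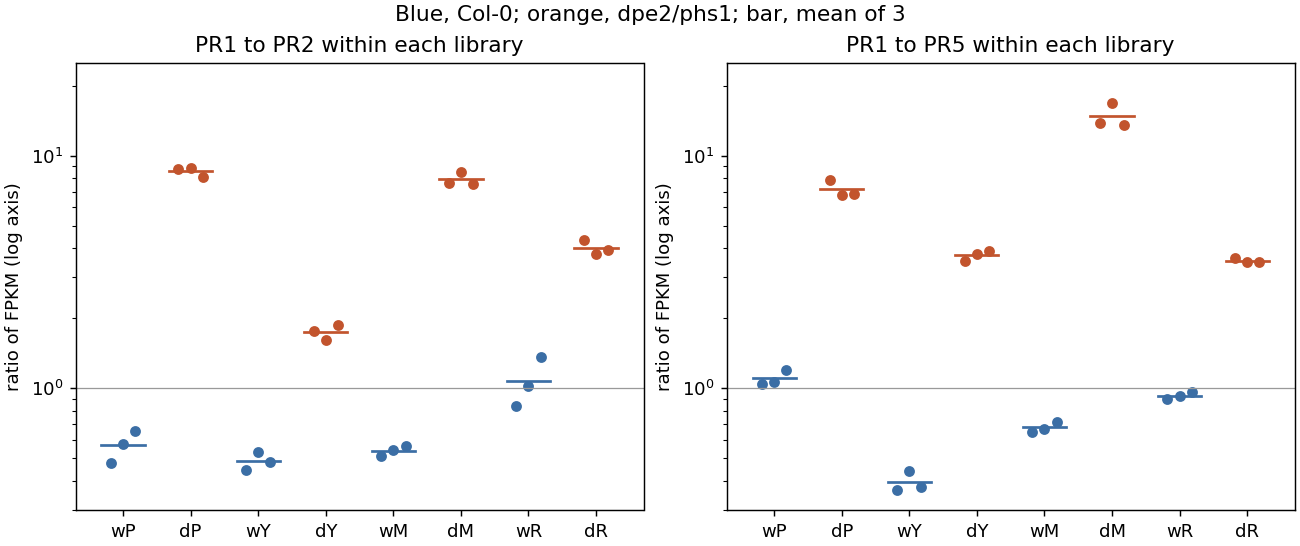
Ratio of PR1 to PR2 (left) and of PR1 to PR5 (right) in FPKM within each of the 24 libraries, on a log axis, by group (blue, Col-0; orange, dpe2/phs1; bars, mean of 3). Every mutant leaf library (dY, dM) lies above every Col-0 leaf library (wY, wM) in both panels, with a lowest mutant leaf ratio of PR1 to PR5 of 3.53 and a highest Col-0 leaf ratio of 0.72.

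The DNA upstream of PR2 and PR5 is shown because both of these response genes were lower in young mutant leaves, in which PR1 was higher. The letters TGACG are the core bound by TGA factors, the partners of the salicylic acid receptor NPR1, and TTGAC is the core bound by WRKY factors. Both were searched on both strands and are in capitals, and TTGACG holds both. The sequences are the 300 bases before each start in the RefSeq genome TAIR10.1, written 5' to 3' on the strand of the gene.
PR2, chr3:21189968-21190267: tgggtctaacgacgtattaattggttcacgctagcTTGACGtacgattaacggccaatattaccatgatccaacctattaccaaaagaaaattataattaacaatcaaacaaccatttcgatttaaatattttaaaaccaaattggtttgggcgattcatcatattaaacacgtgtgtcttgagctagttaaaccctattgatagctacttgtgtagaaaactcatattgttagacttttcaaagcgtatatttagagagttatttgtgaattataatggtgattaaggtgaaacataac
PR5, chr1:28177370-28177669: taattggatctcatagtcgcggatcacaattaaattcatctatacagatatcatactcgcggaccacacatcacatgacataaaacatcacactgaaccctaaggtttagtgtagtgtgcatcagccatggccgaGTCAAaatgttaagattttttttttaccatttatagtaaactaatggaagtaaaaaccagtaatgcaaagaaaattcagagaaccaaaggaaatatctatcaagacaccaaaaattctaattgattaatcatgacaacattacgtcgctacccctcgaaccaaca
Within these 300 bases PR2 held 1 of each in a shared TTGACG, and PR5 held no TGACG and 1 TTGAC. Within 1000 bases PR2 held 2 TGACG and PR5 held none. Of 27443 protein-coding genes, 21.3% held TGACG and 50.4% held TTGAC within 300 bases, and 54.1% and 88.1% did within 1000 bases. Among the 9 genes searched 3 and 5 did within 300 bases, and 5 and 9 within 1000 bases. SARD1 held 3 TGACG and 4 TTGAC within 300 bases, with both strands counted. Its TGACG at 212 and 209 bases before the start overlap on opposite strands, in 1 stretch that reads the same on both. That stretch gives 2 of the TGACG and 2 of the TTGAC, so TGACG lay at 2 separate places. Of all genes, 3.99% held 2 or more TGACG within 300 bases. SARD1 was singled out as the gene with the highest counts of the 9 searched, so this percentage is not a test of enrichment. These are matches of letters, and binding was not measured.

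EDS1 (AT3G48090, chromosome 3, 17755329 to 17758147, reverse strand) encodes a lipase-like protein that pairs with PAD4 or SAG101 downstream of immune receptors. It showed the largest fall of the 10 genes in mature leaves, with 29.1, 31.4 and 28.0 FPKM in wM and 2.94, 2.22 and 2.21 FPKM in dM. The log2 fold change was -3.15 (SE 0.17, adjusted p = 4.5e-13, limma). In young leaves it had 37.5, 40.9 and 34.8 FPKM in wY and 9.41, 11.1 and 11.5 FPKM in dY, a log2 fold change of -1.73 (SE 0.17, adjusted p = 2.2e-08). The mutant libraries lay below the Col-0 libraries in both, and the fall was larger in mature leaves by 1.42 on the log2 scale (difference -1.42, SE 0.25, adjusted p = 7.2e-05). EDS1 was the only one of the 10 genes whose mutant level was lower in mature than in young leaves (log2 fold change dM against dY -1.76, SE 0.17).

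EDS1B, the near-identical copy of EDS1, ends 138 bases from it, and the counting could divide reads between them, so the values of each are uncertain. EDS1B had 7.20 ± 0.78 FPKM in wY, 1.93 ± 0.26 in dY, 15.3 ± 0.46 in wM and 3.88 ± 0.46 in dM. It was lower in the mutant in both leaf ages, by -1.48 and -1.74 on the log2 scale. With the FPKM of both summed, an alternative chosen after the values were seen, the log2 fold change was -1.76 in young and -2.65 in mature leaves, the change from dY to dM moved from -1.76 to -0.89, and the difference between leaf ages moved from -1.42 to -0.89 (adjusted p = 0.0055, limma).

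PAD4 (AT3G52430, chromosome 3, 19431095 to 19434450, forward strand) encodes the lipase-like partner of EDS1. It had 19.7, 18.8 and 17.4 FPKM in wY and 6.11, 4.38 and 4.59 FPKM in dY, a log2 fold change of -1.71 (SE 0.14, adjusted p = 6.7e-10, limma). Mature leaves held 23.0, 24.8 and 25.3 FPKM in wM and 9.62, 10.6 and 15.8 FPKM in dM, a log2 fold change of -0.99 (SE 0.14, adjusted p = 1.7e-06). The mutant libraries lay lower in both leaf ages, with the widest spread in dM. Unlike EDS1, PAD4 rose from dY to dM (1.09, SE 0.14), and its deficit was smaller in mature than in young leaves (difference 0.72, SE 0.20, adjusted p = 0.0044).

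ICS1 (AT1G74710, chromosome 1, 28070295 to 28074177, forward strand) encodes isochorismate synthase, the first enzyme of the route. It had 12.7, 13.3 and 12.8 FPKM in wY and 6.07, 8.31 and 9.70 FPKM in dY, so that it was lower in the mutant (log2 fold change -0.65, SE 0.15, adjusted p = 0.00097, limma). Levels in mature leaves were 9.31, 9.0 and 9.42 FPKM in wM and 13.1, 10.7 and 11.2 FPKM in dM. The dM libraries lay above the wM libraries without overlap, but the log2 fold change of 0.30 (95% confidence interval -0.01 to 0.62) did not pass the test over all 24 libraries (adjusted p = 0.076). It passed when only wM and dM were fitted (adjusted p = 0.023), without the libraries labelled wR (0.023) and with the length trend removed (0.017).

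EDS5 (AT4G39030, chromosome 4, 18185437 to 18189224, forward strand) encodes the carrier that takes isochorismate out of the plastid. It had 7.97, 7.18 and 7.30 FPKM in wY and 3.32, 3.84 and 3.84 FPKM in dY (log2 fold change -0.86, SE 0.11, adjusted p = 8.3e-07, limma). In mature leaves the groups overlapped, with 8.60, 8.0 and 8.56 FPKM in wM and 7.55, 9.0 and 7.85 FPKM in dM. Its 3' end shares 213 bases with AT4G39040 on the other strand, which had group means of 51.8 to 115 FPKM, and the kit does not mark strand, so that reads of the shared bases cannot be told apart.

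PBS3 (AT5G13320, chromosome 5, 4267456 to 4271064, forward strand) encodes the enzyme that joins isochorismate to glutamate. Among the synthesis genes it differed most in young leaves, with 8.65, 10.7 and 8.92 FPKM in wY and 1.46, 2.02 and 1.77 FPKM in dY. The log2 fold change was -1.92 (SE 0.17, adjusted p = 2.5e-09, limma), and mean FPKM in dY was 0.19 of that in wY. Levels in mature leaves were 6.40, 5.96 and 5.68 FPKM in wM and 6.62, 5.42 and 5.31 FPKM in dM, with overlap and a log2 fold change of -0.05 (95% confidence interval -0.40 to 0.30). The genotype difference changed between leaf ages by 0.95 (ICS1), 0.82 (EDS5) and 1.87 (PBS3) on the log2 scale, each with an adjusted p of 0.00087 or lower. Within the mutant the 3 genes rose from young to mature leaves, whereas in Col-0 ICS1 and PBS3 fell (-0.44 and -0.57) and EDS5 did not pass the test (0.15).

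CBP60G (AT5G26920, chromosome 5, 9475679 to 9478777, forward strand) and SARD1 (AT1G73805, chromosome 1, 27744790 to 27749248, reverse strand) encode related transcription factors that bind the ICS1 promoter. CBP60G had 11.6, 11.3 and 10.4 FPKM in wY and 9.65, 10.5 and 10.7 FPKM in dY, and the groups overlapped (log2 fold change -0.10, 95% confidence interval -0.37 to 0.17). In mature leaves it had 26.2, 27.5 and 24.4 FPKM in wM and 23.5, 26.4 and 20.2 FPKM in dM, again with overlap (-0.16, 95% confidence interval -0.43 to 0.11). It rose with leaf age by 1.16 in Col-0 and 1.1 in the mutant on the log2 scale. SARD1 had 15.5, 14.2 and 12.1 FPKM in wY and 9.36, 7.11 and 8.82 FPKM in dY, and was lower in the mutant (-0.67, SE 0.13, adjusted p = 0.00013, limma). In mature leaves it had 19.0, 18.5 and 18.9 FPKM in wM and 18.8, 21.4 and 17.6 FPKM in dM, with overlap. Of the pair, SARD1 passed the test for a genotype difference in young leaves, and CBP60G passed it in neither leaf age. SARD1 overlaps AT1G73790 on the other strand, which had at most 0.055 FPKM on average.

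With leaf age, 9 of the 10 genes rose and EDS1 fell from dY to dM, against a background of 67.7% of all genes (26.5% higher and 41.2% lower). From wY to wM 6 rose, ICS1 and PBS3 fell and EDS5 and EDS1 did not pass the test, against a background of 44% (18.8% higher and 25.2% lower). EDS1 was called lower in wM with quantile normalization, with only wM and wY fitted, without the libraries labelled wR and with the length trend removed (adjusted p 0.0087 to 0.046, limma), and its log2 fold change of -0.34 became -0.0033 with EDS1B summed. Of all genes called, 39.1% were higher in dM than in dY and 53.4% after median-of-ratios rescaling, and 42.8% and 53.9% in wM against wY. The calls of PAD4, PR5, SARD1 and ICS1 in Col-0 were each lost when single libraries were left out. PAD4 lost its call without wM replicate 2 or 3 or wY replicate 2 or 3 (adjusted p 0.068 to 0.107, limma), PR5 without wM replicate 1 or 3 or wY replicate 2 (0.057 to 0.121), SARD1 without wY replicate 3 (0.069), and ICS1 without wM or wY replicate 2 (0.055 in both). The interaction of genotype and leaf age was positive for 8 genes, negative for EDS1 and not called for CBP60G, against a background of 48.8% (20.8% higher and 27.9% lower). Comparisons that share a group are not independent of each other.

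In the shoots, no test was made. In P, 7 of the 10 genes were higher in dP than in wP without overlap, 1 (EDS1) was lower, and EDS5 and PR2 overlapped, against a background of 32.7% higher and 21.8% lower among all genes. PR1 had 9.40, 14.6 and 13.0 FPKM in wP and 232.8, 214.5 and 216.4 FPKM in dP. PR5 had 9.03, 13.7 and 10.8 FPKM in wP and 29.8, 31.6 and 31.5 FPKM in dP, and PR2 had 21.6 ± 3.16 and 25.9 ± 1.45 FPKM. ICS1 (4.21 ± 0.31 against 9.34 ± 0.23 FPKM), PBS3 (1.44 ± 0.19 against 3.65 ± 0.22) and CBP60G (1.90 ± 0.13 against 3.53 ± 0.27) were 1.86-fold to 2.54-fold higher in dP. SARD1 (1.25-fold) and PAD4 (1.34-fold) differed less. EDS1 had 13.9, 11.7 and 13.3 FPKM in wP and 7.68, 8.15 and 9.14 FPKM in dP. Young shoots and young leaves differed in this respect, since ICS1, PBS3, SARD1, PAD4 and PR5 were higher in dP than in wP but lower in dY than in wY, and that difference was not tested.

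In R, none of the 10 genes was higher and 6 were lower in dR than in the libraries labelled wR without overlap, against a background of 31.2% higher and 27.9% lower. PR1 had 602.3, 655.1 and 733.9 FPKM in the libraries labelled wR and 772.9, 684.7 and 681.4 FPKM in dR, with overlap. PR2 (632.9 ± 89.9 against 177.9 ± 3.48 FPKM), PR5 (713.9 ± 48.1 against 201.3 ± 9.61) and PAD4 (38.7 ± 1.5 against 11.8 ± 1.02) were the 3 genes with the largest differences, each lower in dR. ICS1, EDS5 and SARD1 were lower in dR by 0.48, 0.74 and 0.75 on the log2 scale, and PBS3, CBP60G and EDS1 overlapped. The library wR replicate 3 was the lowest of its group for 7 of the 10 genes and the highest for 2, PR1 and PR5. Its long transcripts were the poorest of all libraries (-2.01). Without this library PR1 was higher in dR without overlap, so that 1 gene was higher. After each library was corrected for gene length, PR1 was higher in dR by 0.53 on the log2 scale without overlap and 8 genes were lower. Shares over all genes were not computed for this correction or with a library left out, so these counts have no background beside them. Within the mutant, 9 of the 10 genes were higher in dR than in dP without overlap and EDS1 overlapped, against a background of 21.7% higher and 36.6% lower. Without dR replicate 3, EDS1 was lower in dR without overlap. By the ratio of means PR2 was 6.88-fold, PR5 6.51-fold and PR1 3.22-fold higher in dR than in dP.

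The order of the 8 groups differed among the genes. PR1 was highest in dM (3099 ± 286 FPKM), followed without overlap by dR and the libraries labelled wR, which overlapped, then by dP, wM and dY, of which each overlapped its neighbour, and by wY and wP. PR2 and PR5 were highest in the libraries labelled wR and lowest in wP, and PR2 in wM and dM overlapped. EDS1 was highest in wY (37.8 ± 3.06 FPKM), followed by wM, wP and dY without overlap, and was lowest in dM. PAD4 was highest in the libraries labelled wR, followed by wM and wY without overlap. CBP60G and SARD1 were highest in wM and dM, which overlapped. ICS1 was highest in the libraries labelled wR, where its values spread from 11.1 to 19.4 FPKM and overlapped those of wY. From its lowest to its highest group mean PR1 spanned 252-fold, PR5 64.0-fold, PR2 29.4-fold, EDS1 15.4-fold, CBP60G 13.7-fold and the other 5 genes 3.56-fold to 9.64-fold.

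The genes most like PR1 over the 24 libraries, by Pearson's r of log2(FPKM + 1), were GSTF7 (0.98), BCB (0.98), PCR2 (0.97), SAG13 (0.96) and ATI1 (0.96). GSTF7, a glutathione transferase with a close copy to which reads could be divided, had 91.9 ± 10.11 FPKM in wM and 739 ± 69.5 in dM. SAG13, a dehydrogenase named for its rise in senescing leaves, had 8.54 ± 0.45 FPKM in wM and 234.5 ± 14.3 in dM, and ATI1 encodes a protein that binds the autophagy protein ATG8. The genes most like ICS1 were GLN1-1 (0.88), WRKY30 (0.87), UGT76B1 (0.86), PNP-A (0.85) and AT1G57630 (0.84). GLN1-1 encodes a cytosolic glutamine synthetase and had 89.5 ± 5.36 FPKM in wM and 199 ± 19.1 in dM. The points share 8 groups of 3 libraries, so they are not independent.

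The other genes of the pathway were taken from 7 lists of 55 genes, 54 of which were tested. In young leaves 15 were higher, 24 lower and 15 not called in the mutant, with a median log2 fold change of -0.11, against 34.6% higher and 19.1% lower and a median of 0.15 over all genes tested. In mature leaves 13 were higher, 27 lower and 14 not called, with a median of -0.30, against 36.6% higher and 32.5% lower and a median of 0.05 over all genes. These backgrounds hold for each list below, and with lists this short a count near them is not a result about the list. The further response genes moved most uniformly, with 7 of 8 lower and none higher in each leaf age. Among them NUDT6, a Nudix hydrolase, had 26.5 ± 3.12 FPKM in wY and 4.19 ± 0.79 in dY, and 17.98 ± 1.84 in wM and 3.51 ± 0.92 in dM. ACD6, an ankyrin protein that promotes salicylic acid accumulation, had 949 ± 4.85 FPKM in wM and 142 ± 10.09 in dM (log2 fold change -2.73, adjusted p = 9.0e-15, limma). LURP1 and PNP-A were lower in young leaves (-1.66 and -2.02). Of the homologues of the response proteins 3 were tested, with 1 higher and 2 lower in young leaves and 2 lower in mature leaves. BG3, a glucanase, was lower in both leaf ages (-2.17 and -2.48), and ATLP-3, a thaumatin-like protein, was lower in young leaves (-2.66). PRB1 was higher in young leaves (1.29), with means of 0.10 FPKM in wY and 1.80 in dY, and was not called in mature leaves.

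Among the receptors and their partners, 7 of 12 genes were higher and 3 lower in young mutant leaves, beside 34.6% and 19.1% over all genes. All 6 TGA factors were higher, by 0.44 to 1.40 on the log2 scale, and NPR1 was lower (-0.34). The TGA factors as a family and NPR1 were named after their values were seen. TGA1 had 3.57 ± 0.67 FPKM in wY and 11.1 ± 1.91 in dY. NIMIN1 and NIMIN2, which encode proteins that bind NPR1 and are themselves induced by salicylic acid, were lower in young mutant leaves (-2.0 and -1.36), whereas NIMIN3 of the same family was higher (0.97, with means of 17.0 FPKM in wY and 36.4 in dY, named after its value was seen). In mature leaves 4 of the 12 genes of this list were higher and 4 lower, near the background of 36.6% and 32.5%. Of the genes around EDS1, NDR1, a membrane protein required by a class of immune receptors, had 50.6 ± 3.97 FPKM in wM and 10.96 ± 1.99 in dM, and was lower in young leaves as well (-1.43). NRG1.1, a helper receptor, was higher in young leaves (0.83). In mature leaves 1 of the 8 genes of this list was higher and 5 were lower, beside the same background.

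Among the WRKY and other factors, 7 of 11 were lower and 1 higher in mature mutant leaves, beside 32.5% lower and 36.6% higher over all genes. WRKY46 had 29.5 ± 2.13 FPKM in wM and 2.55 ± 0.98 in dM (log2 fold change -3.14, adjusted p = 2.5e-13, limma). The gene that was higher was WRKY28, a factor reported to bind the ICS1 promoter, with 0.34 ± 0.11 FPKM in wM and 6.26 ± 1.2 in dM. In young leaves WRKY28 and WRKY18 were higher (1.28 and 0.96) and 5 of the list were lower, WRKY51 the most (-1.49). The wY libraries held 0 to 5 reads of WRKY28, and on the log2(FPKM + 1) scale the change of such low genes is understated.

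The genes of salicylic acid turnover and conjugation included the largest rise of the pathway lists in mature leaves. UGT74F2, a glucosyltransferase that makes the glucose ester of salicylic acid, had 1.70 ± 0.48 FPKM in wY and 16.02 ± 1.1 in dY, and 5.24 ± 0.51 in wM and 83.1 ± 2.16 in dM (log2 fold change 2.67 and 3.76). SOT12, a sulfotransferase that accepts salicylic acid, had 9.62 ± 1.40 FPKM in wM and 51.4 ± 6.19 in dM. DLO1, a salicylic acid hydroxylase, and UGT76B1, a further glucosyltransferase, were lower in young mutant leaves (-2.98 and -1.11). In each leaf age 3 of the 6 genes tested were higher, and 3 were lower in young and 2 in mature leaves, which with 6 genes cannot be set apart from the background of 34.6% higher and 19.1% lower in young and 36.6% and 32.5% in mature leaves. Of the synthesis list, PAL1, a phenylalanine ammonia lyase of the alternative route, had 15.03 ± 1.02 FPKM in wM and 77.4 ± 2.87 in dM, and EPS1 and PAL4 were lower in young leaves (-0.49 and -1.38). Of the pipecolate branch, which makes the signal of systemic resistance, FMO1 had 0.71 ± 0.17 FPKM in wM and 8.16 ± 0.87 in dM and was higher in young leaves as well (0.44, adjusted p = 0.031, limma), while ALD1 and SARD4 were lower there (-0.86 and -0.44).

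**Figure D4:**
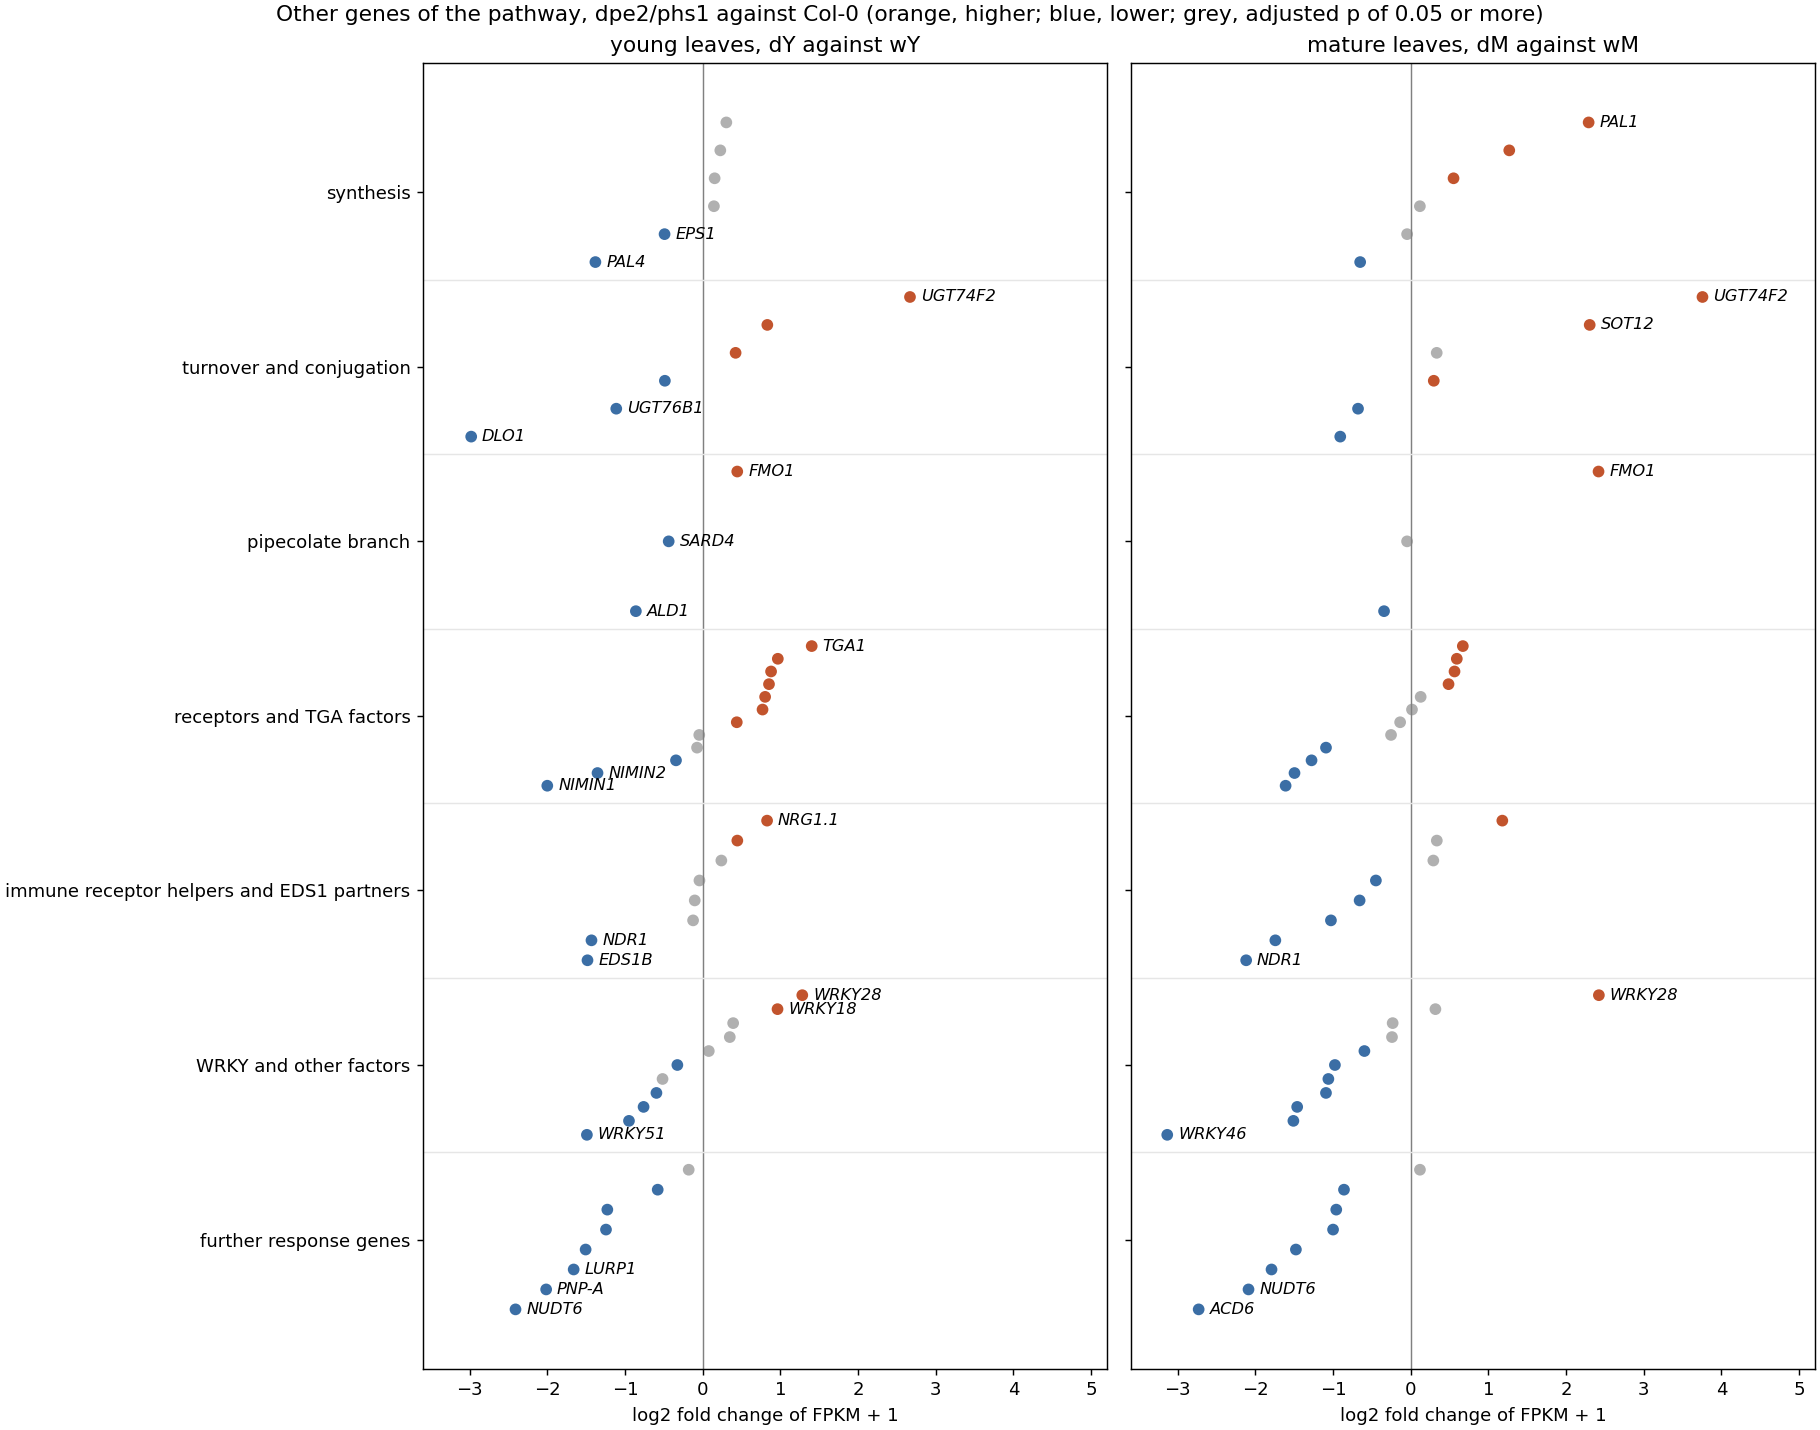
Log2 fold change of FPKM + 1, dpe2/phs1 against Col-0, of the 54 tested genes of 7 pathway lists in young leaves (left) and mature leaves (right), sorted within each list (orange, higher; blue, lower; grey, not called). UGT74F2 lies farthest to the right in both panels, at 2.67 and 3.76, and 7 of the 8 further response genes are blue in each panel.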

How the data were processed

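The 24 libraries were grouped by their labels into 8 groups of 3. The authors aligned the read pairs using HISAT2, and FPKM of 33044 genes were deposited. CASAVA, featureCounts and TAIR10 are named in the submitters' processing notes. The DESeq2 test of the authors was on counts that were not used here. No column of sample values was left out (0).

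A pseudocount of 1 was added before log2 transformation. The test was limma 3.58.1 (R 4.3.3), where the eBayes step used a trend and all 24 libraries shared 1 spread per gene, and covered 19575 genes with a mean of at least 1 FPKM in at least 1 group. Benjamini-Hochberg adjustment was over all of them, and genes under 0.05 were called. The change of low genes is understated on this scale. Shoots were described by differences and by overlap of libraries. The authors call the replicates biological, and p-values measure the spread between them. Other steps used Python 3.11.15 with pandas 2.3.3, and plots used matplotlib 3.10.9.

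The genes and lists were chosen with earlier results of these data known. Named by rule were all 10 genes, list genes called in dM against wM beyond 2 on the log2 scale, up to 3 per list with the largest called change in dY against wY, and the 5 most like PR1 and ICS1.

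FPKM values are whole multiples of a step per gene, from which reads and library totals were recovered. With listed gene lengths 55.8% of nonzero values were whole within 0.01 reads. Fitted lengths were chosen to make the values of a gene whole, so that their 100% is not a check of the recovery. Recovered reads summed to 100.03% to 100.06% of the recovered total of each library. The recovery and the limma test were each tried on simulated data. The mean chi-square per gene between replicates was 2.53 to 69.8 over 24 pairs, above the sampling noise. Upstream sequence and motifs came from the RefSeq annotation of TAIR10.1, in which 27443 of 27444 shared genes had the deposited start and end. Upstream sequence of PR1 is not reported here.

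Alternatives tried included another pseudocount (0.1), omission of the filter, a minimum of 5 FPKM, median-of-ratios, quantile and TPM rescaling, the compared groups alone, no wR libraries, a replicate block, limma-voom on recovered reads, removal of the length trend (loess, span 0.3), and each replicate left out. Summing EDS1 with EDS1B was added after the data were seen.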

Additional observations from a re-analysis of the deposited data

Results flagged for a closer look

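For 9 of the 10 genes the genotype difference in mature leaves differed from that in young leaves by the interaction test (limma, adjusted p under 0.05, a threshold passed by 48.8% of all genes). The difference, (dM - wM) - (dY - wY) on the log2 scale, was 2.76 for PR1, 1.87 for PBS3, 1.55 for PR5, 0.95 for ICS1, 0.82 for EDS5, 0.73 for PR2, 0.72 for PAD4 and 0.70 for SARD1, so that the mutant stood higher against Col-0 in mature than in young leaves. It was -1.42 for EDS1, the only one of the 9 with a negative sign.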

How the results depend on the processing

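In young leaves every alternative kept PR1 higher and 8 genes lower, except quantile normalization, under which CBP60G passed as well (-0.35, adjusted p = 0.013) and 9 were lower. In mature leaves all alternatives kept PR1 higher (3.57 to 3.92) and EDS1, PAD4 and PR5 lower. With the compared groups alone, without the wR libraries or with the length trend removed 2 genes were higher there, ICS1 being added, and under quantile normalization 5 were lower, CBP60G (-0.35) and PR2 (-0.27) being added. Signs of genes that were not called turned in mature leaves for EDS5 with the length trend removed (0.021), for PBS3 with quantile normalization (0.019) and length trend removal (0.16), and for SARD1 with quantile normalization (-0.12) and TPM rescaling (-0.035), and in the interaction for CBP60G with median-of-ratios rescaling (0.076). Leaving out single replicates gave ranges in mature leaves of -0.11 to 0.0031 for EDS5, -0.045 to 0.088 for SARD1 and -0.10 to 0.027 for PR2, and of -0.14 to 0.041 for the interaction of CBP60G. In wM against wY 1 gene was lower with median-of-ratios rescaling, where ICS1 was not called (adjusted p = 0.061), and 1 to 2 were lower when replicates were left out, while 3 were lower, EDS1 being added, under the 4 settings named with it above. In R, 1 gene was higher in dR without overlap with quantile normalization, TPM rescaling and length trend removal, and 0 to 1 when replicates were left out. Against dP, 0 to 1 were lower in dR when replicates were left out. For the shoots, shares over all genes were not computed under these settings. Counting all 10 genes and 5 leaf comparisons over the other settings, 537 values kept direction and call, 10 gained a call, 2 lost it and 6 turned sign, and with single replicates left out 345 kept both, 10 lost the call and 5 turned sign.

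Replicate numbers did not pair the libraries, since the correlation of same-numbered deviations was -0.14 to 0.11 over 12 pairs and was the highest for its own number in 2 of them. The replicate block gave 10404 called genes in young and 13478 in mature leaves against 10499 and 13532 without it, and changed no call of the 10 genes. The depth limits only genes near 3 reads, and none of the 10 was near that level.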
